A study of Mus musculus with 6 samples.

Results

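Immediate-early genes are switched on within minutes of a stimulus without new protein synthesis, and 10 of them that are widely used as a record of cell activity were followed here gene by gene in the cochlea of Kir2.1-OE and control mice. The set was chosen by name from 3 families of transcription factor and their usual companions. It holds the AP-1 genes Fos, Fosb and Junb, the zinc-finger genes Egr1 and Egr3, the orphan nuclear receptors Nr4a1, Nr4a2 and Nr4a3, the neuronal factor Npas4, and Arc, which codes for a protein that acts at synapses. All 10 were among the 24411 gene symbols of the series, and 9 of them were abundant enough to be among the 15303 genes tested.

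The study asked which genes depend on the calcium action potentials that inner hair cells, the primary sensory cells of the cochlea, fire by themselves before hearing begins. Mice named Kir2.1-OE carried 1 copy of a tetracycline-controlled transactivator under the Otof promoter (Otof rtTA+/-) and 1 copy of a transgene (Kir2.1+/-) for Kir2.1, an inward rectifier K+ channel that holds cells at a more negative potential. Control mice, named WT in the labels, were littermates that also carried the transactivator (Otof rtTA+/-) but not the transgene (Kir2.1+/+). Both groups were on the C57BL/6N background, received doxycycline (DOX, 0.5 mg/ml) and were taken at postnatal day 9, and each group had 3 libraries, each from a pool of 8 cochleae from 4 mice. Otof is active mainly in inner hair cells, whereas the RNA came from tissue labelled as cochlea and described in the study's text as organs of Corti. Inner hair cells are a small part of such tissue, so each value below is an average over all cell types in the pool. In such samples, fewer cells of a type and less RNA per cell cannot be told apart.

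In neurons, calcium entering through L-type channels activates calmodulin-dependent kinases and the ERK pathway, which act on the transcription factors CREB and SRF already bound at immediate-early promoters. CREB binds the cyclic AMP response element (CRE) and its shorter core TGACG, and SRF binds the CArG box. Many of these genes also answer growth factors, stress and tissue dissection, so that their level is not a record of electrical activity alone. NPAS4 is the most selective for calcium entry in neurons, and the ARC protein takes part in the removal of glutamate receptors from synapses.

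The promoters of the 3 NR4A genes are shown because these close relatives were not all called higher in Kir2.1-OE, and that of Fos because it is the best studied of the set. Each line gives the 250 bases before the start of the gene in RefSeq (GRCm38.p6), read 5' to 3' on the strand of the gene. The CRE core, TGACG or its reverse complement CGTCA, is in capitals.

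Nr4a1 (chr15:101266596-101266845, + strand): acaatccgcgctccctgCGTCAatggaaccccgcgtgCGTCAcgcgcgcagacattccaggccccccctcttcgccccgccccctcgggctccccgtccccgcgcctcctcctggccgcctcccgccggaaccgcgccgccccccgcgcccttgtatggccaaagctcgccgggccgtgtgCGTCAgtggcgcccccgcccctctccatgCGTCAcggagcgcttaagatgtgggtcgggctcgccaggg

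Nr4a2 (chr2:57124004-57124253, - strand): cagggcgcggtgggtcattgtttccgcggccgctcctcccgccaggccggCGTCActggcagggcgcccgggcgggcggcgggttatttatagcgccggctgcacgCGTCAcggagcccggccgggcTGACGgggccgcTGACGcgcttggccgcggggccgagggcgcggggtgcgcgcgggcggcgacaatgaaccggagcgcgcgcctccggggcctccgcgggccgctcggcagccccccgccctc

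Nr4a3 (chr4:48045055-48045304, + strand): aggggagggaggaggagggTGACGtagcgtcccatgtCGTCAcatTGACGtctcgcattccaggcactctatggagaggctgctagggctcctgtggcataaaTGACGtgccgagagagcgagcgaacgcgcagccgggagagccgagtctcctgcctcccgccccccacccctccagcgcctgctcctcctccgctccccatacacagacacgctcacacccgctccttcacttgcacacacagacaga

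Fos (chr12:85473640-85473889, + strand): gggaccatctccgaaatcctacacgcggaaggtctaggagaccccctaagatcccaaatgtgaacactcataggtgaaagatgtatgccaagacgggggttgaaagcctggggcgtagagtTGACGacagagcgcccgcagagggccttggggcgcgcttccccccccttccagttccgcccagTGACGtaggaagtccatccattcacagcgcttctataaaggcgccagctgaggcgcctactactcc

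Promoters were at hand for 7 of the 10 members, all but Egr1, Egr3 and Arc. Each of the 3 NR4A promoters held 4 CRE cores, Fos and Npas4 held 2, and Fosb and Junb held 1, whereas 17.7% of 32817 promoter windows of the same length held at least 1 (both strands searched). The full CRE (TGACGTCA) occurred in none of the 7 windows and in 1.55% of all windows. Neither the CArG box (1.47% of all windows), the AP-1 site TGANTCA (6.75%) nor the EGR site GCGTGGGCG (0.536%) was found in the 7. The CArG box was searched only in its strict form, CC and GG with nothing but A or T between them. Looser forms and sites farther upstream were not searched, so their absence from these promoters is not shown. The TATA box TATAAA was found in Fos, 33 bases before the start, and in Nr4a2, on the opposite strand, and in 12.4% of all windows. These are matches of letters in a short window, and the number of cores was the same in Nr4a1 and Nr4a2, which were called higher in Kir2.1-OE, as in Nr4a3, which was not called.

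In mm10 (GENCODE vM21), Nr4a1 lies at chr15:101254269-101274795 (+ strand), Nr4a2 at chr2:57106830-57124003 (- strand) and Nr4a3 at chr4:48045153-48086447 (+ strand). The annotated starts of Nr4a1 and Nr4a3 are those of their most upstream transcripts and come before the RefSeq starts used for the promoters. Those of Fosb and Npas4, given below, also come before their RefSeq starts, and the windows of Nr4a1 and Npas4 lie within the annotated genes. Fos lies at chr12:85473890-85477273 (+ strand), Fosb at chr7:19302696-19310051 (- strand) and Junb at chr8:84974484-84978718 (- strand). Egr3 lies at chr14:70077203-70082614 (+ strand), Npas4 at chr19:4984355-4990316 (- strand) and Arc at chr15:74669083-74672570 (- strand). Reads were counted per gene, so isoforms are not told apart.

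The libraries held between 35430940 and 41205047 estimated reads. Replicates of a group differed by 16.3 to 32.4 times the sampling noise (chi-square per degree of freedom over genes), so none was a library deposited more than once. Kcnj2, which codes for Kir2.1, stood at 3612, 3813 and 2213 normalized counts (counts scaled to the mean library size) in the 3 Kir2.1-OE pools and at 236, 228 and 226 in the control pools, a 14.0-fold difference (edgeR, adjusted p = 7.04e-05), in the direction of the labels. Below, values in the pools are given in the order of replicates 1, 2 and 3, and a gene is called higher or lower where the adjusted p of edgeR's quasi-likelihood test is under 0.05 and the fold change above 1.5. By that rule 15.5% of all genes tested were higher in Kir2.1-OE and 5.08% lower.

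Of the 9 immediate-early genes tested, 5 were higher in Kir2.1-OE (Arc, Nr4a2, Egr3, Egr1 and Nr4a1), none was lower, and Fos, Fosb, Junb and Nr4a3 were not called. The same 5 passed, and no others, when the fold threshold was dropped, where 27.3% of all genes passed as higher and 23.5% as lower. No tested member had a negative log2 fold change, so none was lower at an unadjusted p under 0.05 either, and DESeq2 and limma-voom also called 5 higher and 0 lower. The median log2 fold change of the 9 was 0.67, against 0.01 over all genes tested. In each of the 5 called genes every Kir2.1-OE pool was above every control pool, an arrangement found in 31.7% of all genes, and in the other 4 tested the groups overlapped. For a single gene, 3 pools against 3 cannot give an exact two-sided permutation p below 0.1, which all 5 reached.

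**Figure D1:**
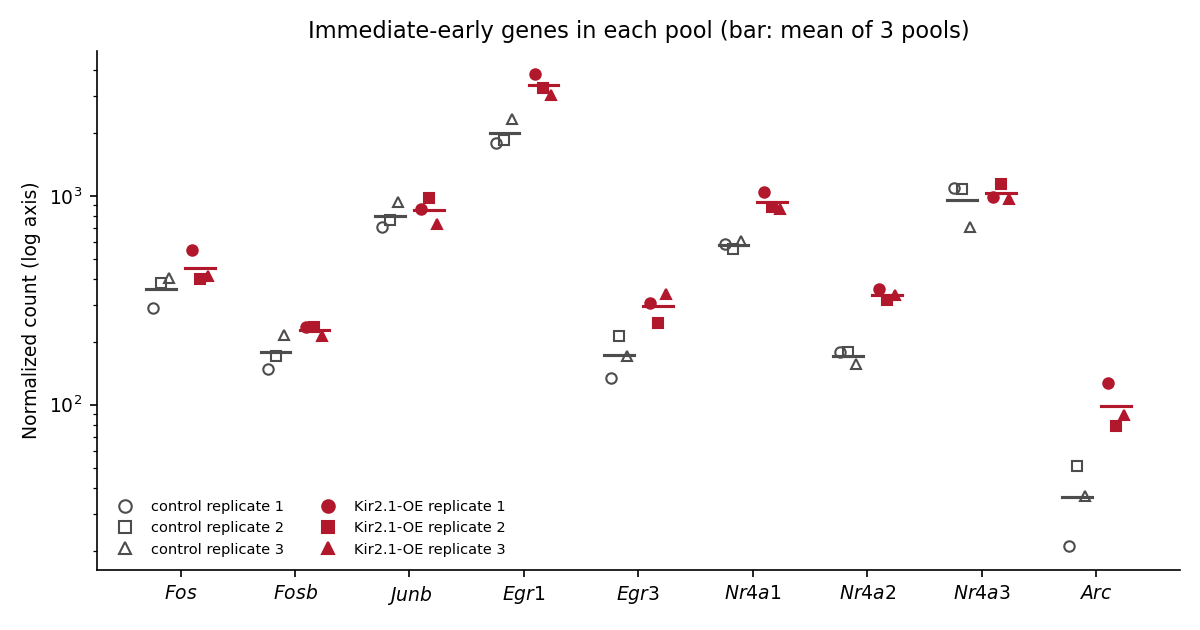
Normalized counts of the immediate-early genes tested in each pool, with the mean of each group (n = 3). The 3 Kir2.1-OE pools lie above the 3 control pools for Egr1, Egr3, Nr4a1, Nr4a2 and Arc and overlap them for the other genes.

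Both EGR genes were higher in Kir2.1-OE. Egr1, a zinc-finger activator induced by growth factors and by synaptic activity, was at 3812, 3293 and 3048 normalized counts in Kir2.1-OE and at 1784, 1855 and 2328 in controls. The group means were 3384 ± 390 and 1989 ± 296 (SD, n = 3), and the lowest Kir2.1-OE pool was well above the highest control pool. Its log2 fold change was 0.77 ± 0.117 (SE; edgeR, adjusted p = 0.000765), and it was no longer called, at 0.31, once transcript length and GC content were allowed for. Egr3, a relative of EGR1 that acts in muscle spindles and lymphocytes, was less abundant, at 305.9, 245.8 and 339.6 in Kir2.1-OE and at 134.4, 213.5 and 172.0 in controls. Its means were 297 ± 47.5 and 173 ± 39.6 (SD, n = 3) and its log2 fold change was also 0.77, with a wider error of 0.194 (SE; edgeR, adjusted p = 0.00886). The second Kir2.1-OE pool and the second control pool of Egr3 lay close together.

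Among the NR4A receptors, orphans that are thought to be controlled by how much of them is made, Nr4a1 and Nr4a2 were called higher and Nr4a3 was not; the difference between them was not tested. Nr4a2, needed for midbrain dopamine neurons, was at 357, 317 and 334 normalized counts in Kir2.1-OE and at 179, 179 and 157 in controls, with means of 336 ± 20.3 and 171 ± 12.7 (SD, n = 3). These were the tightest groups among the members that were called, relative to the distance between them. The log2 fold change of Nr4a2 was 0.97 ± 0.129 (SE; edgeR, adjusted p = 0.000404). It was the only member that passed a stricter test against a log2 fold change of 0.6 (edgeR glmTreat, adjusted p = 0.0381).

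Nr4a1, known for the death of self-reactive T cells, was at 1042, 880 and 864 in Kir2.1-OE and at 586, 553 and 610 in controls, with means of 929 ± 98.2 and 583 ± 28.3 (SD, n = 3). Its log2 fold change of 0.67 ± 0.0992 (SE; edgeR, adjusted p = 0.00065) was little above the fold threshold, and fell to 0.57, under the threshold, without Kir2.1-OE replicate 1. Nr4a3 was at 988, 1143 and 966 in Kir2.1-OE and at 1091, 1076 and 707 in controls, so that the groups overlapped and only the third control pool was low. Its log2 fold change was 0.11, with a 95% confidence interval of -0.24 to 0.46 (edgeR, adjusted p = 0.591). The ratio of Nr4a2 to Nr4a3 within a library, compared after the values had been seen and so without a test, was 0.361, 0.277 and 0.346 in Kir2.1-OE and 0.164, 0.166 and 0.222 in controls.

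Arc had the largest fold change and the lowest level of the members tested. It was at 127.3, 78.9 and 88.9 normalized counts in Kir2.1-OE and at 21.1, 50.9 and 36.6 in controls, with means of 98.4 ± 25.5 and 36.2 ± 14.9 (SD, n = 3). Its log2 fold change was 1.43 ± 0.334 (SE; edgeR, adjusted p = 0.00614), and 1.86% of all genes tested had a larger one. The first control pool was the lowest of the 6, and without it the log2 fold change was 1.16. Without the second control pool it was 1.77, and Arc was called in both cases.

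The AP-1 genes were not called. Fos, the partner of JUN proteins in the AP-1 dimer, was at 548, 399 and 412 normalized counts in Kir2.1-OE and at 290, 383 and 402 in controls. The second Kir2.1-OE pool lay below the third control pool. Its log2 fold change was 0.34, with a 95% confidence interval of -0.03 to 0.71 (edgeR, adjusted p = 0.115). Fosb, whose short splice form is the long-lived deltaFosB of chronically active neurons, was at 235, 235 and 214 in Kir2.1-OE and at 148, 172 and 215 in controls. Its log2 fold change of 0.35 had an interval of -0.02 to 0.72 (edgeR, adjusted p = 0.0991), and the intervals of both FOS genes reached past the value of Nr4a1, 0.67, but not that of Egr1, 0.77.

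Junb, which can oppose the action of JUN, was at 868, 973 and 734 in Kir2.1-OE and at 709, 770 and 934 in controls, with a log2 fold change of 0.09 (95% confidence interval -0.20 to 0.39; edgeR, adjusted p = 0.576). The end of Junb overlaps that of Prdx2, a peroxidase abundant in red blood cells, on the opposite strand of chromosome 8, and no strand setting is given in the sources used here, so reads of these genes may not be separate. Prdx2 was at 15978 ± 1847 normalized counts in Kir2.1-OE and 24958 ± 1498 in controls (SD, n = 3), a log2 fold change of -0.64 (edgeR, adjusted p = 0.000736). Its part in the Junb value was not tested.

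Npas4 was all but undetected. It had 1, 2 and 0 reads in the Kir2.1-OE pools and 0, 0 and 1 in the control pools, so no difference could be tested. For a library with a count of 0, counting error alone allows a share of up to between 7.28e-06% and 8.47e-06% of the reads.

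**Figure D2:**
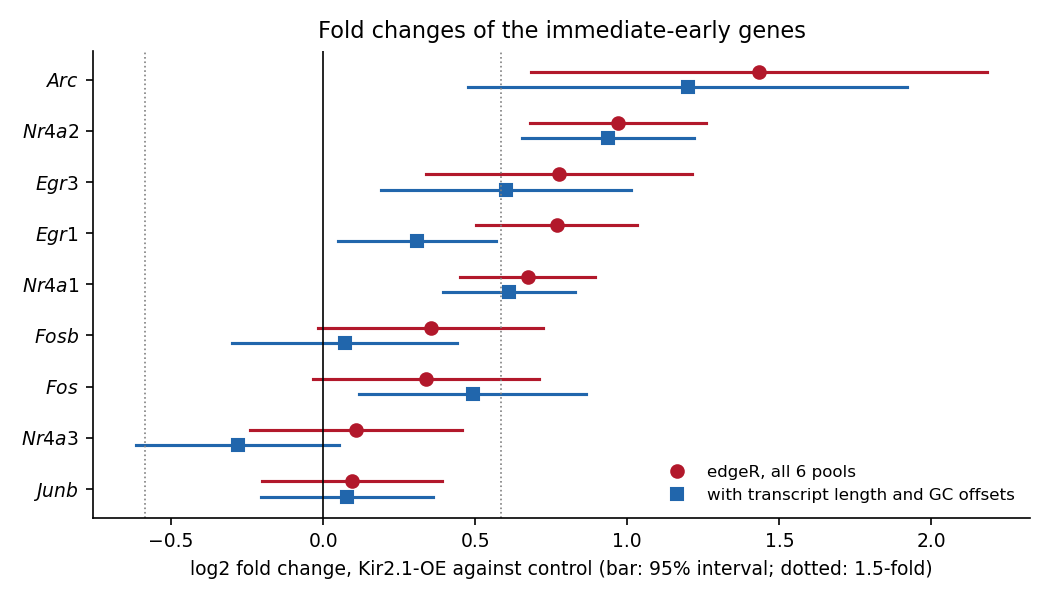
Log2 fold change (Kir2.1-OE over control) of the 9 members tested, with 95% confidence intervals, from the fit to counts and from the fit with offsets for transcript length and GC content. Arc and Nr4a2 lie farthest to the right in both, and Egr1 falls from 0.77 to 0.31 with the offsets.

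Levels per kilobase (CPM, the count relative to the library total, divided by the length of the longest transcript) let the genes be compared with each other. In controls Egr1 (11.8 ± 1.76 CPM per kb, SD, n = 3) and Junb (11.8 ± 1.72) were the highest and overlapped. Nr4a1 came next, at 6.08 ± 0.295 CPM per kb. It was followed by Fos (4.53 ± 0.757) and Nr4a3 (4.46 ± 1.01), which overlapped, and then by Nr4a2 (1.28 ± 0.095), Fosb (1.26 ± 0.237) and Egr3 (1.17 ± 0.268), whose pools also overlapped. Arc stood at 0.316 ± 0.13 CPM per kb and Npas4 at 0.00238. In Kir2.1-OE, Egr1 at 20.1 ± 2.32 CPM per kb was clear of Junb at 12.6 ± 1.77. The ratio of Egr1 to Junb, again chosen after the values had been seen, was 4.39, 3.38 and 4.15 in Kir2.1-OE and 2.51, 2.41 and 2.49 in controls, in normalized counts.

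The members tended to share the order of the pools within a group. Kir2.1-OE replicate 1 was the highest of its group in 6 of the 9 members and the lowest in 0, and control replicate 1 was the lowest of its group in 6 of 9. Control replicate 3 was the highest of its group in 5. The 9 genes share the same 6 libraries, so these counts are a description of those libraries.

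Length of the transcript went with the difference between the genotypes across the whole table, and it differs among the members. The median log2 fold change was -0.50 for genes with a longest transcript under 1000 nt and 0.81 for those over 8000 nt, and the share of genes called higher was 1.37% and 64% in these classes. Between 2000 and 4000 nt, where Arc (3055 nt), Fos (2108 nt), Fosb (3782 nt), Egr3 (3940 nt), Nr4a1 (2553 nt) and Nr4a2 (3568 nt) lie, the median was -0.06 and 6.69% of genes were called higher. Between 4000 and 8000 nt, where Egr1 (4484 nt) and Nr4a3 (5720 nt) lie, the median was 0.29 and 26.3% were called higher. Nr4a3, the longest of the set, was thus below the median of its length class, and Junb (1809 nt) was above that of its own, -0.30.

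When each library was given offsets for length and GC content, 6.46% of all genes were called higher. Of the members, 4 were: Arc at a log2 fold change of 1.20 (edgeR, adjusted p = 0.0188), Nr4a2 at 0.94 (adjusted p = 0.00136), Nr4a1 at 0.61 (adjusted p = 0.00226) and Egr3 at 0.60 (adjusted p = 0.0305). Egr1 moved to 0.31 (adjusted p = 0.0645) and was no longer called. Fos moved up to 0.49 (adjusted p = 0.0456), under the fold threshold, and Nr4a3 changed sign to -0.28 (adjusted p = 0.171). What brought the length trend about was not tested.

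**Figure D3:**
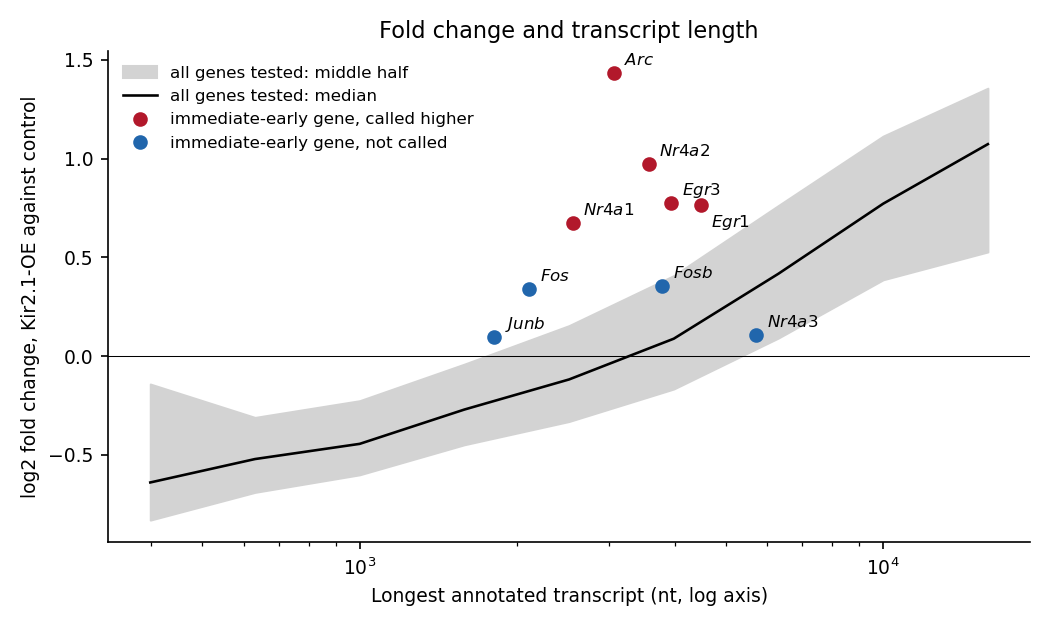
Log2 fold change (Kir2.1-OE over control) against the length of the longest transcript on a log axis, with the median of all genes tested in bins of at least 20 genes and the members as points. The median rises with length, from -0.64 in the shortest bin drawn (midpoint 398 nt) to 1.07 in the longest (midpoint 15850 nt). All members tested lie above it except Nr4a3.

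A wider list of genes of the rapid response was called in part. Of 54 further early genes listed, 50 were tested, 10 were higher in Kir2.1-OE and none was lower, against 15.5% and 5.08% of all genes, with a median log2 fold change of 0.17 against 0.01. At any fold, 17 were higher and 5 lower (19 and 5 at an unadjusted p under 0.05), against 27.3% and 23.5% of all genes, so that the share called higher was near that of all genes. DESeq2 and limma-voom called 9 and 10 higher and 0 lower. The 6 with the largest change were Sik1, a kinase that restrains CREB coactivators (1.02), Gadd45g, a stress sensor (0.98), Ptgs2, the inducible cyclooxygenase (0.90), Dusp4, a phosphatase that switches off MAP kinases (0.82), Fosl2, an AP-1 partner (0.79), and Egr2, needed for myelination by Schwann cells (0.77). The pools of Ptgs2, at 123, 59.0 and 92.0 normalized counts in Kir2.1-OE and 44.1, 37.3 and 65.1 in controls, overlapped. Per1, Klf4, Plk3 and Dusp5, named after their values had been seen, were called at 0.62 to 0.76. With the offsets 6 of the list were called higher, against 6.46% of all genes, Fosl2 not among them at 0.12, and Nptx2, a secreted synaptic pentraxin, was called lower at -0.60.

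Relatives of the AP-1 and EGR members were also called in part. Jun was at 2294, 2055 and 2123 normalized counts in Kir2.1-OE and 1623, 1621 and 1646 in controls, so that the groups were apart, but its log2 fold change of 0.40 (edgeR, adjusted p = 0.0013) was under the fold threshold. Jund, at a log2 fold change of -0.01, was not called. Egr2 was at 1286, 1096 and 1711 in Kir2.1-OE and 728, 838 and 838 in controls, close to the fold change of Egr1 and Egr3, and kept 0.77 with the offsets. Egr4 was at 0 in all Kir2.1-OE pools and in 1 control pool and was not tested. None of 8 tested effector genes that neurons induce with activity was called on the counts by edgeR, DESeq2 or limma-voom, and at an unadjusted p under 0.05 none was higher and 1 lower (Nptx2, -0.51, called lower with the offsets as given above). Among these, and named after their values had been seen, Homer1, a scaffold of synapses, was at a log2 fold change of 0.07 (edgeR, adjusted p = 0.558) and Bdnf, a growth factor for cochlear neurons, at 0.13 (adjusted p = 0.383).

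Genes of the signalling route to these promoters were called higher in 13 of 47 cases and lower in none, against 15.5% and 5.08% of all genes, with a median log2 fold change of 0.25. At any fold 27 were higher and 3 lower, against 27.3% and 23.5% of all genes (29 and 4 of the 47 at an unadjusted p under 0.05). DESeq2 and limma-voom also called 13 higher and 0 lower. The largest was Camk4, a calmodulin-dependent kinase that activates CREB in nuclei of neurons, at 535, 325 and 699 normalized counts in Kir2.1-OE and 128, 170 and 94.7 in controls (log2 fold change 1.98, 2.07 with the offsets). Next came the coactivator Crebbp (1.64) and its relative Ep300 (1.22), the L-type channel gene Cacna1c (1.37), the SRF cofactor Mkl2 (1.11) and the SRF partner Elk4 (1.07). Cacna1d, which codes for the L-type channel of inner hair cells, was at 1787, 1631 and 1405 in Kir2.1-OE and 828, 870 and 810 in controls, with a log2 fold change of 0.94.

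The longest transcripts of Cacna1c (13162 nt), Crebbp (10820 nt), Cacna1d (9658 nt), Ep300 (9566 nt) and Mkl2 (8295 nt) exceed that of any member. With the offsets 4 of the 47 were called higher, near the 6.46% of all genes, and Cacna1d stood at 0.23, Ep300 at 0.46 and Crebbp, still called, at 0.83. Cacna1c moved to 0.57 (edgeR, adjusted p = 0.0836) and Mkl2 to 0.44, neither called, and Elk4, still called, to 0.88. Neither Srf nor Creb1 was called. Srf was at a log2 fold change of 0.28 (edgeR, adjusted p = 0.021), under the fold threshold, and Creb1 at 0.00 (adjusted p = 0.99). Of 9 genes for ERK, RSK and MSK kinases none was called by edgeR, DESeq2 or limma-voom, with 1 higher and 2 lower at an unadjusted p under 0.05 and a median of -0.04.

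**Figure D4:**
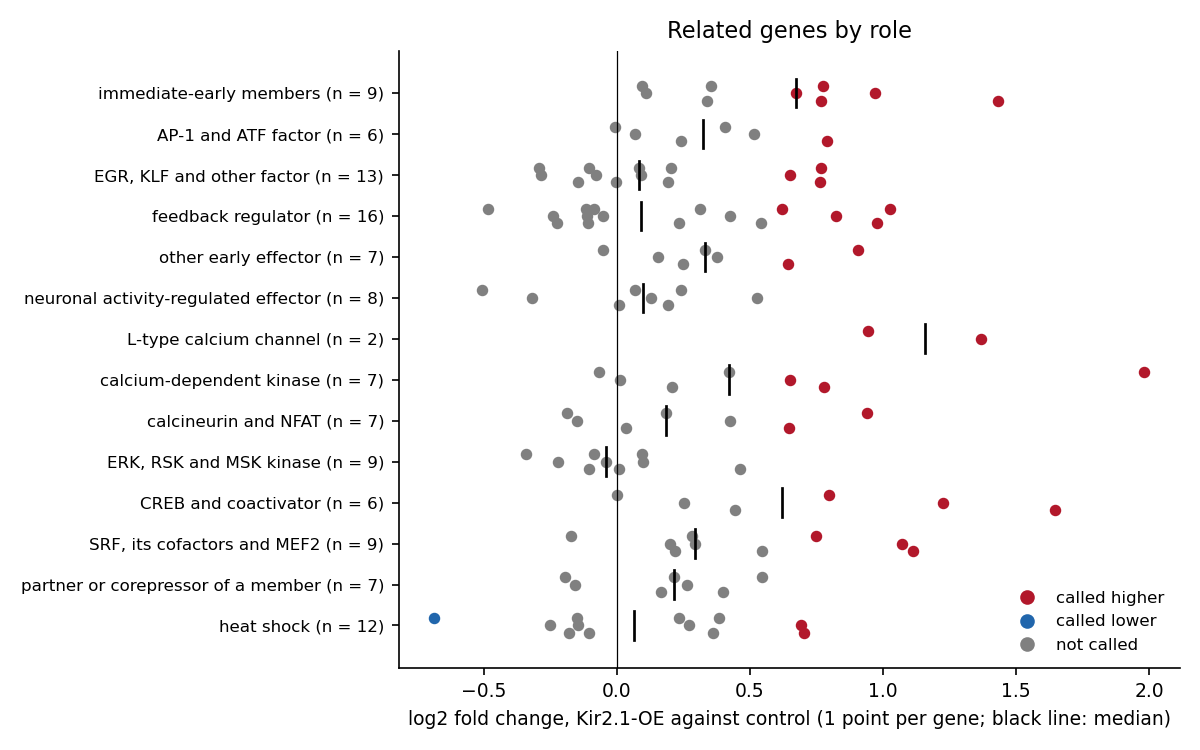
Log2 fold changes (Kir2.1-OE over control) of the genes tested, 1 point a gene. The members share a single row, and the other early genes, signalling genes and heat shock genes are shown by role. Called genes lie to the right except the heat shock gene Hspe1, called lower at -0.69. The neuronal effectors, the ERK, RSK and MSK kinases and the partners or corepressors of a member have no called gene.

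Likeness of pattern was measured as Pearson's correlation with the mean profile of the 9 members, among 13636 genes with a mean of at least 50 normalized counts. Over the 6 libraries the most alike were Mtss1 (r = 0.9992), Ankle2 (0.9989), Efcab14 (0.9988), Ralgps2 (0.9988) and Nacc1 (0.9985), and 1447 genes were above 0.95. With the genotype means subtracted, they were Ikbke (r = 0.9968), Trpm7 (0.9963), Pi4kb (0.9947), Acot2 (0.9944) and Smad1 (0.9943), and 145 genes were above 0.95. With so few libraries, all shared, these values rank genes and carry no test.

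Levels of cell type markers in the same pools moved with the genotype. The summed level of 9 neuron markers was 461.9 to 1180 CPM in Kir2.1-OE and 252.9 to 403.7 in controls, with 5 of the 9 called higher, on the counts as with the offsets, against 15.5% of all genes on the counts. Glial markers came to 10850 to 13770 CPM against 7742 to 10110 (2 of 7 higher), endothelial and pericyte markers to 556.5 to 573.4 against 408.8 to 471.7 (5 of 10 higher), and cartilage and bone markers to 17200 to 20700 against 7685 to 10740 (2 of 7 higher). Most of the last sum was Col2a1, the collagen of cartilage, at a mean of 574259 against 283892 normalized counts, which was not called with the offsets (0.32), and Matn1 was at -0.57, not called. Inner hair cell markers came to 227.1 to 270.7 CPM against 176.8 to 197.6 (1 of 3 higher), so their RNA was present in all pools. With the offsets none of these 3 was called, and Otof moved from a log2 fold change of 0.76 to -0.09 and Tbx2 from 0.32 to -0.17. Erythrocyte markers were lower, at 289.2 to 367.4 against 477.4 to 1190 CPM (3 of 5 lower, against 5.08% of all genes), and of these Hbb-bs was at 0 in 3 of the 6 pools. With the offsets 1 of the 5 was called lower, against 522 of all 15303 genes.

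Sums for shared hair cell, outer hair cell and supporting cell markers overlapped between the groups, though single genes were called. Of 6 shared hair cell markers 0 were higher and 1 lower, of 4 outer hair cell markers 2 and 0, and of 6 supporting cell markers 1 and 1. The shares of all genes were 15.5% and 5.08%. With the offsets 1 outer hair cell and 1 supporting cell marker were higher and none was lower. Most of the outer hair cell sum was Ocm, at a mean of 17755 against 21916 normalized counts, not called. Sums of neutrophil markers, at 3.008 to 5.524 CPM in Kir2.1-OE and 5.37 to 14.09 in controls, also overlapped. Of these markers 2 of 5 were lower, against 5.08% of all genes, and 0 of 5 with the offsets. Macrophage sums did not overlap, at 208.1 to 219.2 CPM in Kir2.1-OE against 195.9 to 206.9, with none of 8 called by edgeR, DESeq2 or limma-voom (2 higher and 2 lower at an unadjusted p under 0.05). Within Kir2.1-OE the highest neuron sum was that of replicate 3, in which Egr3 was also highest, and Arc, Egr1, Nr4a1 and Nr4a2 were highest in replicate 1. Within the controls it was that of replicate 2, in which Arc, Egr3 and, narrowly, Nr4a2 (179.0 against 178.6 in replicate 1) were also highest. Egr1 and Nr4a1 were highest in control replicate 3. Of 12 heat shock genes, which rise with the stress of dissection, 2 were called higher (Hspa1a at a log2 fold change of 0.70 and Hspa1b at 0.69) and Hspe1 was called lower (-0.69), against 15.5% and 5.08% of all genes. At any fold 6 were higher and 2 lower, against 27.3% and 23.5% of all genes. Hspa1a and Hspa1b were higher in every Kir2.1-OE pool than in every control pool, but neither was called with the offsets. With the offsets 1 of the 12 was called higher, against 6.46% of all genes, and 0 lower. It was Hmox1, at 0.59 (edgeR, adjusted p = 0.00238), which was not called on the counts (0.36). The sums of the 12 overlapped, at 2721 to 3225 against 3162 to 3199 CPM. Most of each sum was Hspa8, at a mean of 62169 against 70487 normalized counts (not called), so the overlap says little about the other genes. The part of these cell types and of dissection in the levels of the immediate-early genes was not tested.

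**Figure D5:**
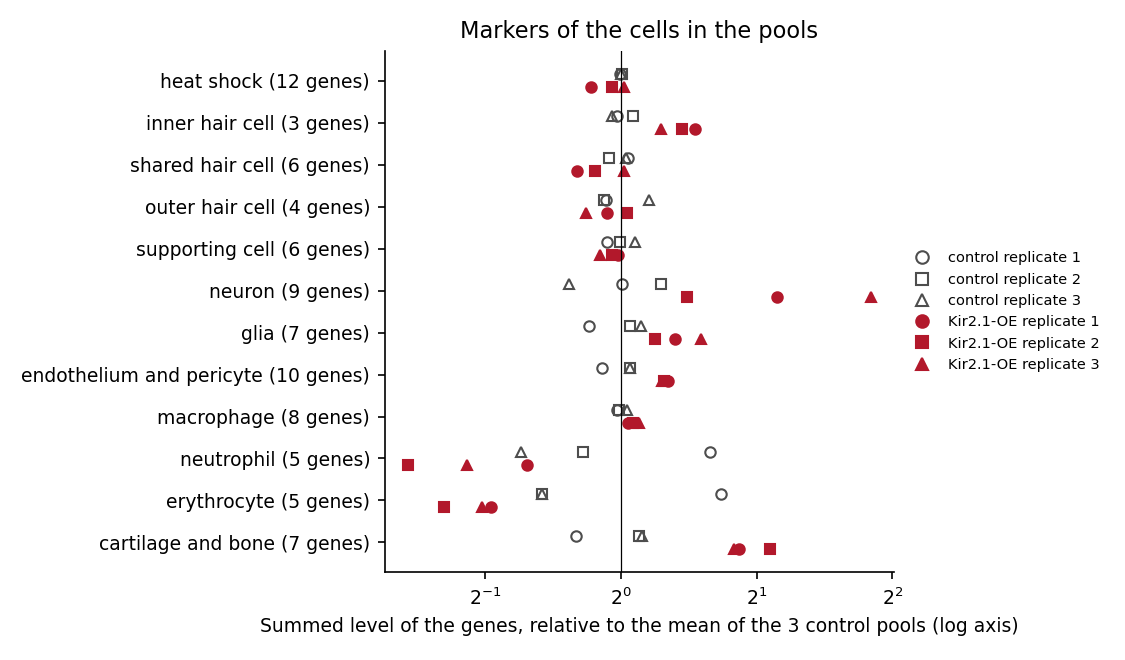
Summed CPM of each marker list in each pool, relative to the mean of the 3 control pools, on a log axis. Neuron, glial, endothelial, inner hair cell, macrophage and cartilage and bone sums are higher in all 3 Kir2.1-OE pools, and erythrocyte sums are lower.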

How the data were processed

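To make the deposited files of estimated counts per gene, the authors mapped reads to mm10 with the nf-core RNA pipeline at standard parameters and counted genes with Salmon, per the study's methods. Versions, annotation and strand setting are not given in the sources used here. Counts were rounded, since 6.69% to 7.29% of values in a library were not whole, and genes with low counts were removed by filterByExpr, leaving 15303. Scaling (TMM) and the quasi-likelihood test were from edgeR 4.0.16 in R 4.3.3, with Benjamini-Hochberg adjustment over all 15303 genes, and DESeq2 1.42.0 and limma 3.58.1 were alternatives. The study used DESeq2. Lengths and GC content came from GENCODE vM21, for 99.3% of tested genes, and offsets from loess fits (span 0.4, degree 2) of the deviation of each library from the average library on the log2 scale.

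On data simulated for this comparison (15205 genes passing the filter), 94.5% of 200 genes changed by 2-fold were recovered. The changed genes were drawn from the more abundant ones, and no length trend was simulated. Of the 5 members called, only Arc changed by more than 2-fold, so this share does not describe the smaller changes of the others. The members and gene lists were chosen with earlier results of these data known. Named genes were all members, Kcnj2, the 6 called genes of each list with the largest change in each direction, 8 genes fixed in advance (Egr2, Egr4, Jun, Jund, Fosl2, Srf, Creb1, Cacna1d) and the 5 most alike. Homer1, Bdnf, Nptx2, Prdx2, Per1, Klf4, Plk3, Dusp5 and single marker and heat shock genes were named after their values were seen. The header of control replicate 1 gives it another replicate number than its label, which was followed. No source states that pools came from separate litters, so p-values measure the spread between these pools. Motif shares leave out chromosome 18. Intervals and floors cover counting error or the spread between pools only. Columns of other samples were not present.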

Additional observations from a re-analysis of the deposited data

How the results depend on the processing

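Arc and Egr3 were called higher in all fits but glmTreat against a log2 fold change of 0.6 and the length and GC offsets with the replicate block, where Egr3 (0.61, adjusted p = 0.0653) and Arc (1.22, adjusted p = 0.0521) missed the threshold, and Nr4a2 was called in all. With these offsets and the block, 2 members were called (Nr4a1 and Nr4a2), with 803 genes higher and 443 lower, 5 other early genes and 4 signalling genes higher, and Nr4a3 at -0.26. The replicate numbers did not pair the pools (correlations of deviations -0.106, -0.232 and -0.213), and the block alone called the same 5 members. With the offsets alone 988 genes were higher, 6 other early genes higher and 1 lower, 4 signalling genes higher, and Nr4a3 at -0.28; with offsets from the median transcript, chosen after seeing the data, 4 and 3 other early genes, Fosb -0.11, Junb -0.027 and Egr1 0.42, not called. Under glmTreat 832 genes were higher and 57 lower, with 1 member (Nr4a2), 0 other early genes and 8 signalling genes higher. Without the fold threshold the numbers were 4184 and 3590 genes, 17 and 5 other early genes, and 27 and 3 signalling genes.

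Upper quartile scaling moved the median of all genes to -0.08 and the share of calls that were higher from 75.2% to 57.9% (65.4% with the offsets); 1378 genes were lower, 6 other early genes higher and 1 lower, and Nr4a1 was at 0.58, under the fold threshold. Leaving out 1 library gave 1878 to 2527 genes higher, 536 to 1074 lower, 4 to 5 members higher, 7 to 9 other early genes higher, 0 to 1 lower (1 without Kir2.1-OE replicate 3 or control replicate 3) and 11 to 14 signalling genes higher. Junb then ran from -0.031 (without Kir2.1-OE replicate 2) to 0.22 (without control replicate 3), and Nr4a3 from -0.069 (without control replicate 3) to 0.21 (without control replicate 1), none called. The causes were not tested. At this depth Npas4 and Egr4 could not be compared.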
